A study of Bos taurus with 10 samples.

Results

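This account covers 10 genes of the bone morphogenetic protein (BMP) pathway in bovine early blastocysts with and without an intact *SOX2* gene. They are the ligand genes *BMP2* and *BMP4*, the receptor genes *BMPR1A* and *BMPR2*, the signal transducer genes *SMAD1*, *SMAD5* and *SMAD4*, and the target genes *ID1*, *ID2* and *ID3*. They were taken by symbol from the table of 20112 genes, and all 10 were found and had enough reads to be tested among the 20056 tested genes. Single embryos were sequenced, 5 in each group. Every embryo was produced by in vitro fertilization, and BE3 mRNA was injected at the zygote stage in both groups. BE3 is a cytosine base editor, and it was given alone to the WT embryos and together with a mixture of *SOX2* sgRNAs, which write premature stop codons into the gene, to the *SOX2* KO embryos. The labels place collection at day 7.0 after fertilization and the study's methods slightly later. Oocytes came from abattoir ovaries, so the parents of the embryos are not known, and each library pools all cells of an embryo. Fewer cells of a type and less RNA per cell cannot be told apart in such libraries.

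BMP ligands bind a complex of type I receptors, such as BMPR1A, and type II receptors, such as BMPR2. The activated complex phosphorylates SMAD1 and SMAD5, which join SMAD4 and enter the nucleus, and the *ID* genes are among the best known genes that respond. ID proteins bind E proteins, partners of many tissue-specific transcription factors, and keep them off DNA. In mouse embryonic stem cells, BMP4 and the ID proteins are known to help hold the pluripotent state, and in mouse embryos *Bmp4* is expressed by the inner cell mass and *Id2* by the early trophectoderm (TE).

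*ID1* fell to 0.162 of its WT level in *SOX2* KO embryos, and *BMP2* rose 3.14-fold. The other 8 members were not called. Of these, *ID2* had 0.441 of its WT level with overlapping groups, and the receptor and SMAD genes all lay between 0.868 and 1.21 of it. Values are read counts scaled by a DESeq2 size factor for each embryo, called normalized read counts here. Groups were compared with limma on log2(normalized read count + 1), which understates changes of genes with few reads, and p-values were adjusted by Benjamini-Hochberg over all 20056 genes. A gene was called when its adjusted p was at most 0.05 and its fold change at least 2 or at most 0.5. By this rule 10.1% of all tested genes were called, 8.93% as higher and 1.16% as lower in *SOX2* KO embryos, against 2 of the 10 members, 1 in each direction. Without the threshold on the fold change, 13.6% of all genes passed and still 2 of the 10 members. The groups did not overlap for 9.17% of all genes and for 1 member, *ID1*. With 10 members, counts of 1 or 2 are too small to set apart from these shares. The median log2 fold change was -0.13 over the 10 members and 0.25 over all genes. Of the 20056 tested genes, 8722 had a mean under 10, against 1 of the members, *ID3*. Over the 11334 genes whose mean reached 10, the median was -0.04, nearer to that of the members.

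**Figure D1:**
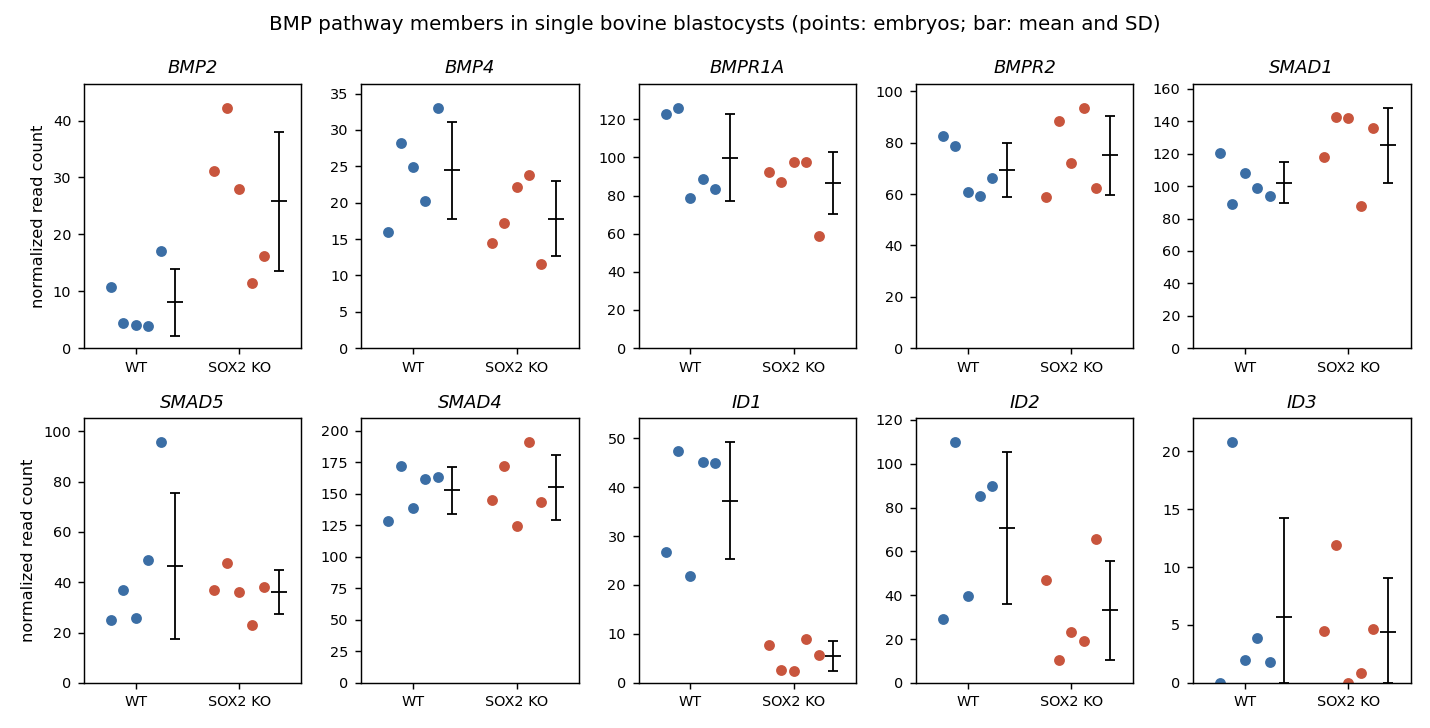
Normalized read count (y axes, each starting at 0) of the 10 members in each WT (blue) and *SOX2* KO (red) embryo, with the mean and SD of the 5 embryos beside them (the lower bars of *ID3* are cut at 0). *ID1* is the one member whose groups do not overlap, with 21.9 to 47.5 in WT against 2.33 to 9.04 in *SOX2* KO embryos.

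The libraries held 2223670 to 5134855 reads on genes in WT against 2578284 to 4337342 in *SOX2* KO embryos, with no molecular identifiers, so reads are not independent molecules. The share of the 18S ribosomal RNA gene *RN18S1* was 26.4% to 37.0% in WT against 32.5% to 45.0% in *SOX2* KO embryos, and 15919 to 18092 and 17987 to 19813 genes had at least 1 read. Among 13 analysed epiblast markers, 5 were called lower and 0 higher, and their summed level was 3140 to 3938 in WT against 2009 to 2486 in *SOX2* KO embryos. Among 11 primitive endoderm markers, 4 were called lower and 0 higher, with sums of 2099 to 2883 and 1487 to 1920. Of the 11, 7 had a log2 fold change below 0 and 4 above. Much of the gap in these sums was *SPARC*, with 644 to 1063 in WT against 174 to 468 in *SOX2* KO embryos. Among 14 TE markers, 1 was called higher and 0 lower, with overlapping sums of 27329 to 40655 and 38166 to 51930. Most of these sums came from the keratin genes *KRT8* and *KRT18*. Of the 14, 13 had a log2 fold change above 0. The other, *TFAP2C*, was at 0.711 of its WT level (limma adjusted p = 0.0352). *EOMES* had at most 3 reads in any embryo, and the other TE markers more. The sums of 9 genes of cumulus cells, which surround the oocyte, were 47.5 to 156 and 91.2 to 471 (0 called). By the study's methods, cumulus cells were stripped from the zygotes and the zona pellucida was taken off the blastocysts. Most of that gap was *CYP11A1*, with 14.8 to 83.9 in WT against 1.64 to 402 in *SOX2* KO embryos, and the sums of the other 8 genes were 32.6 to 82.5 and 61.6 to 99.2. *INHBA* had at most 3 reads in any embryo. The part of the lineage markers and of the *RN18S1* share in the results on *ID1* and *BMP2* was not tested. A fit with that share as a covariate is given with both genes. The range of the share lay higher in *SOX2* KO embryos, so this fit cannot fully separate the share from the group. *SOX2* mRNA itself had 56.5 to 93.4 in WT against 26.4 to 82.1 in *SOX2* KO embryos (log2 fold change -0.55, limma adjusted p = 0.167), and read counts do not show the edited bases. The study genotyped each sequenced blastocyst from part of its cDNA library. It also reports a drastically weaker SOX2 protein signal by immunostaining in edited blastocysts.

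The ligand *BMP2* was counted at 10.7, 4.45, 3.98, 3.89 and 17.1 normalized reads in the WT embryos nc1 to nc5. It had 31.2, 42.3, 27.9, 11.5 and 16.1 in the *SOX2* KO embryos ko1 to ko5. The lowest *SOX2* KO embryos, ko4 and ko5, lay below the highest WT embryo, nc5, and the other 3 lay above every WT embryo. The mean rose from 8.02 ± 5.83 to 25.8 ± 12.3 (SD, n = 5 each), a log2 fold change of 1.65 (standard error, SE, 0.47, 95% interval of the fold change 1.6 to 6.18, limma adjusted p = 0.0254). The values rest on 55 reads in WT and 112 in *SOX2* KO embryos in all, with as few as 3 in a WT embryo. The call depended on single embryos. It was lost without ko1, ko2, ko3, nc2 or nc4, with limma adjusted p between 0.0551 and 0.0702 and log2 fold changes of 1.45 to 1.59. With the *RN18S1* share as a covariate the log2 fold change was 1.99 (limma adjusted p = 0.122). On the recovered reads of all 10 embryos the call held with DESeq2 (1.61, adjusted p = 0.0196) and edgeR (1.47, adjusted p = 0.0422), and without nc3 it held with limma (1.49, adjusted p = 0.0416) and DESeq2 (1.44, adjusted p = 0.0408) and was lost with edgeR (1.32, adjusted p = 0.0635).

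*BMP4*, a close relative that binds the same receptors, had 16.0, 28.2, 24.9, 20.2 and 33.1 in WT embryos. It had 14.5, 17.2, 22.1, 23.8 and 11.5 in *SOX2* KO embryos, with overlapping groups. Its log2 fold change was -0.44 (SE 0.33, limma adjusted p = 0.366), and the 95% interval ran from 0.457 to 1.19 of the WT level, which includes 0.5. The ratio of *BMP2* to *BMP4* within an embryo does not depend on the scaling of the library, and gene length cancels when embryos are compared. It was 0.667, 0.158, 0.160, 0.192 and 0.518 in WT and 2.15, 2.46, 1.26, 0.483 and 1.40 in *SOX2* KO embryos. Only ko4 lay within the WT range of this ratio, which was not tested.

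The type I receptor gene *BMPR1A* had 123, 126, 78.6, 88.6 and 83.2 in WT and 92.4, 87.2, 97.7, 97.8 and 58.8 in *SOX2* KO embryos. The type II receptor gene *BMPR2* had 82.4, 78.6, 60.7, 59.1 and 66.1 in WT and 59.0, 88.5, 72.1, 93.6 and 62.3 in *SOX2* KO embryos. The groups overlapped for both receptors, and neither was called. *BMPR1A* was at 0.873 of the WT level (95% interval 0.648 to 1.18, limma adjusted p = 0.533). *BMPR2* was at 1.07 (95% interval 0.798 to 1.44, limma adjusted p = 0.764). The small difference of *BMPR1A* turned direction in 1 of 24 alternatives, the fit with the *RN18S1* share as a covariate. That of *BMPR2* turned in 2 of 24, with libraries scaled to equal totals and with edgeR without nc3. Neither turned when 1 embryo was left out.

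The receptor-activated *SMAD1* had 121, 89.0, 108, 98.7 and 93.8 in WT and 118, 143, 142, 87.9 and 136 in *SOX2* KO embryos. In 3 *SOX2* KO embryos it was above every WT embryo, whereas ko1 lay inside the WT range and ko4 below it. It was at 1.21 of the WT level (95% interval 0.931 to 1.58, limma adjusted p = 0.299). *SMAD5*, which acts in the same step, had 25.2, 37.1, 25.9, 49.0 and 95.6 in WT and 36.7, 47.5, 36.0, 23.0 and 38.1 in *SOX2* KO embryos. The WT embryo nc5 was above all others. The level was at 0.868 of WT (95% interval 0.541 to 1.39, limma adjusted p = 0.697), and without nc5 the log2 fold change went from -0.20 to 0.10.

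*SMAD4*, the partner shared with the activin and TGF-beta branches, had 128, 172, 138, 162 and 163 in WT and 145, 172, 124, 191 and 143 in *SOX2* KO embryos. It was at 1.01 of the WT level (95% interval 0.791 to 1.29, limma adjusted p = 0.966), the narrowest interval of the 10 members on the log2 scale, and the sign of this difference turned when libraries were scaled to equal totals. The limma intervals of the 5 receptor and SMAD genes each lay inside 0.5 to 2, so a change as large as the threshold was outside that interval for each of them. No intervals were made for the count tests, in which the log2 fold change of *SMAD5* was larger than in limma. It was -0.38 with DESeq2 and -0.50 with edgeR on all 10 embryos, and -0.54 and -0.64 without nc3. These intervals are for single genes and were not adjusted for their number. In the RefSeq table of the assembly ARS-UCD2.0, *SMAD1* overlaps *MIR2284G* and *SMAD4* overlaps *LOC112444219*. Both had at most 5 reads in any embryo.

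**Figure D2:**
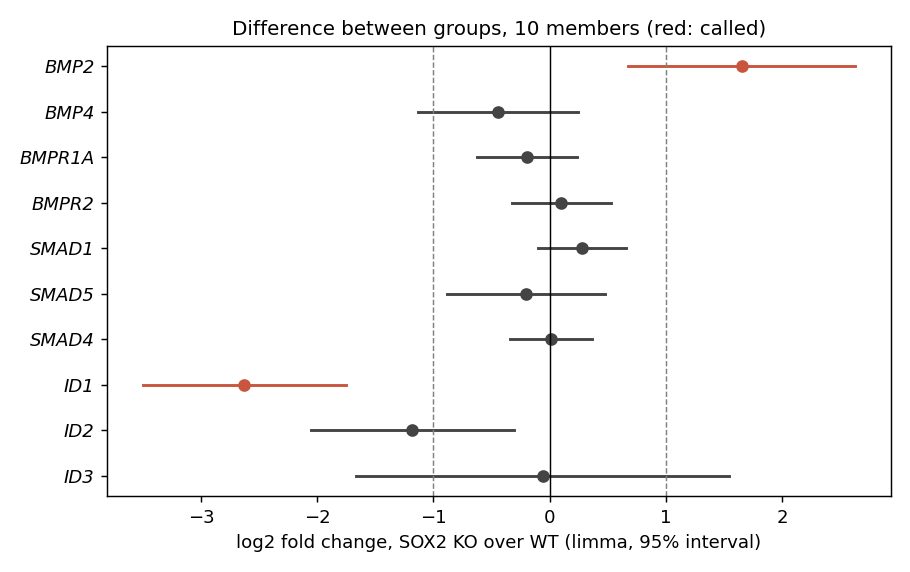
Log2 fold change of the 10 members in *SOX2* KO against WT embryos (x axis, points) with the 95% interval from limma (lines), and dashed lines at the thresholds of a 2-fold change. The called genes *BMP2* (1.65) and *ID1* (-2.63) are red, the intervals of the receptor and SMAD genes stay between the dashed lines, that of *ID1* lies outside them, and those of *BMP2*, *BMP4*, *ID2* and *ID3* cross them.

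*ID1*, which encodes an inhibitor of DNA binding, had 26.7, 47.5, 21.9, 45.1 and 44.9 in WT embryos. It had 7.79, 2.64, 2.33, 9.04 and 5.77 in *SOX2* KO embryos. Every WT embryo was more than 2-fold above the highest *SOX2* KO embryo, ko4. The mean fell from 37.2 ± 11.9 to 5.51 ± 3.0 (SD, n = 5 each), a log2 fold change of -2.63 (SE 0.42, 95% interval -3.50 to -1.75, limma adjusted p = 0.000641). The values rest on 223 reads in WT and 27 in *SOX2* KO embryos, and ko2 and ko3 had 2 reads each, under the floor of 3 reads, so their order within the group carries no weight. *ID1* kept its call under all 24 alternatives run, with log2 fold changes of -3.20 to -2.0 and adjusted p of 1.79e-07 to 0.0396. The highest of these p came with the *RN18S1* share as a covariate in limma, where the log2 fold change was -2.25. The summed epiblast and primitive endoderm markers also did not overlap between the groups, and their part in this result was not tested. Set against *SMAD4* of the same embryo, *ID1* had ratios of 0.158 to 0.279 in WT against 0.0154 to 0.0538 in *SOX2* KO embryos, which did not overlap.

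*ID2* had 29.0, 110, 39.8, 85.5 and 89.7 in WT and 46.8, 10.6, 23.3, 18.9 and 65.7 in *SOX2* KO embryos. The groups overlapped, since ko1 and ko5 exceeded the WT embryos nc1 and nc3. The means were 70.7 ± 34.6 and 33.0 ± 22.7 (SD, n = 5 each), and the log2 fold change was -1.18 (SE 0.42, limma adjusted p = 0.0648), short of the threshold. Across the alternatives the adjusted p ran from 0.0284 to 0.265 and 7 of 24 passed both thresholds. On the recovered reads of all 10 embryos, DESeq2 gave an adjusted p of 0.0715 and edgeR 0.0397, and without nc3 the adjusted p was 0.0461 with limma, 0.0408 with DESeq2 and 0.0284 with edgeR. Among WT embryos only nc1 had less *ID2* than nc3. With 1 embryo left out, the limma adjusted p ran from 0.0373 to 0.152, and 3 of the 10 fits passed both thresholds.

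**Figure D3:**
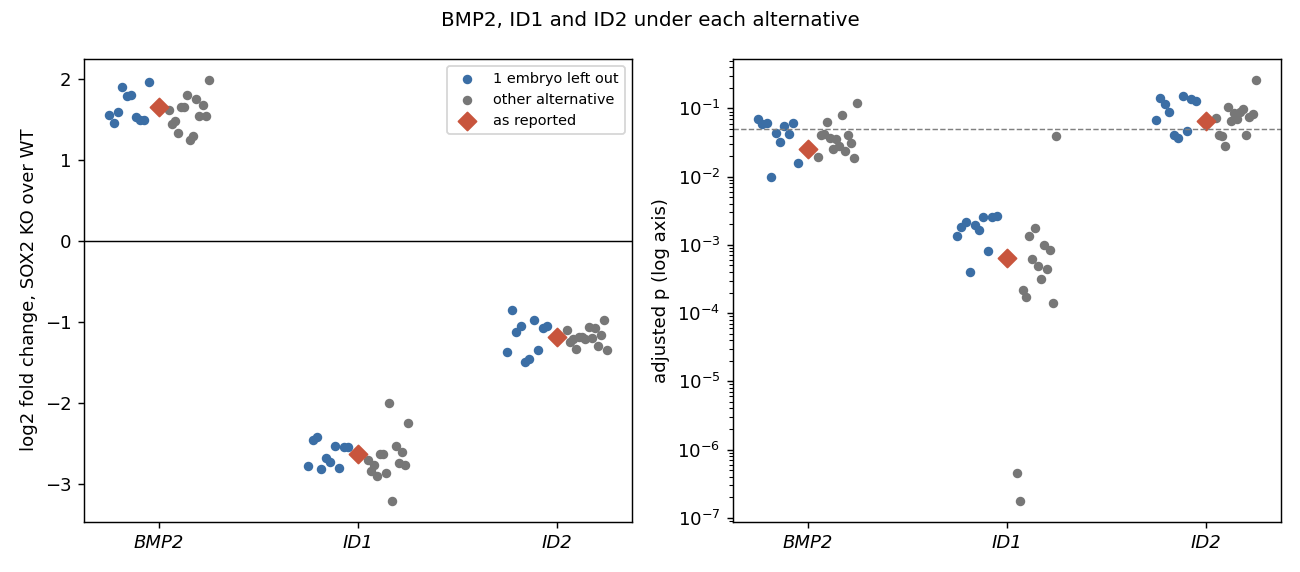
Log2 fold change in *SOX2* KO against WT embryos (left) and adjusted p on a log axis with a dashed line at 0.05 (right) of *BMP2*, *ID1* and *ID2*, as reported (red diamonds), with 1 embryo left out (blue) and under the other alternatives (grey). All values of *ID1* lie below the line (adjusted p at most 0.0396), while those of *BMP2* and *ID2* lie on both sides of it.

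*ID3* had 0, 20.8, 1.99, 3.89 and 1.77 in WT and 4.45, 11.9, 0, 0.821 and 4.61 in *SOX2* KO embryos. It rests on 24 reads in WT and 18 in *SOX2* KO embryos, of which 14 came from nc2 and 9 from ko2, and more than 3 reads were found in 2 WT and 3 *SOX2* KO embryos. A difference was not detectable at this depth, with a log2 fold change of -0.06 and a 95% interval of -1.66 to 1.54 (limma adjusted p = 0.968). The 3 *ID* genes thus had different values within the same embryos, and whether *ID1* differed more than *ID2* was not tested. The ratio of *ID1* to *ID2* was 0.432 to 0.921 in WT against 0.0877 to 0.478 in *SOX2* KO embryos, where only ko4 reached the WT range.

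**Figure D4:**
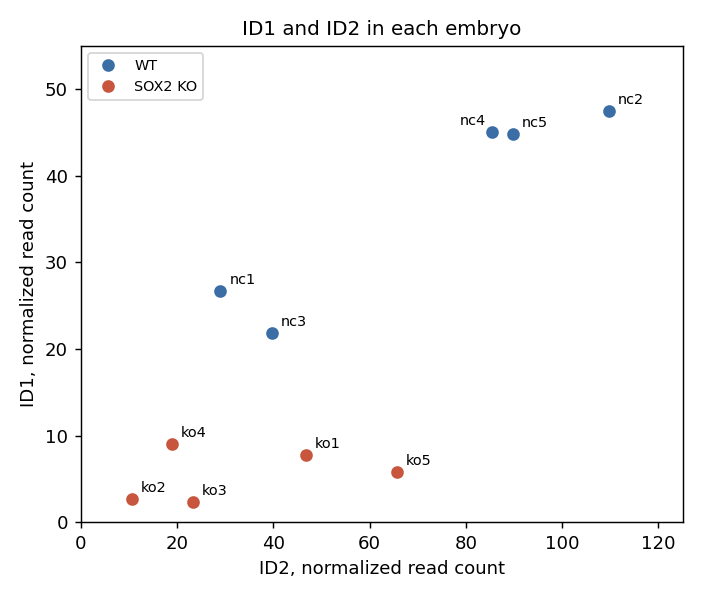
Normalized read count of *ID1* (y axis) against *ID2* (x axis), 1 point for each WT (blue) and *SOX2* KO (red) embryo. The WT embryos nc1 and nc3 are the lowest of their group for both genes, and all *SOX2* KO embryos lie below an *ID1* count of 10 while their *ID2* counts reach 65.7.

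The spread between embryos of a group is given as the coefficient of variation, the SD as a share of the mean. Among the members it had a median of 29.7% in WT and 26.5% in *SOX2* KO embryos, against 24.6% and 24.4% over 11334 genes whose mean was 10 or more. It was lowest for *SMAD4* (12.1% and 16.9%) and highest for *ID3* (150% and 108%). After the group mean was taken off each log2 value, *ID1* and *ID2* had a Pearson correlation of 0.63 and *BMPR1A* and *BMPR2* of 0.64 over the 10 embryos. It was -0.82 for *SMAD1* and *ID1*, -0.76 for *SMAD1* and *SMAD4*, and -0.62 for *BMPR2* and *ID2*. These pairs were picked from all pairs of members after their values were seen, and all genes of an embryo share its size factor, depth and *RN18S1* share. *ID1* rests on 2 to 11 reads in a *SOX2* KO embryo, so its correlations carry little weight. For the 2 members with a mean of at least 100, the most similar genes by this measure among 4548 genes of that level were *HYOU1* (0.94) and *CDK16* (0.92) for *SMAD1*, and *OSBPL9* (0.96) and *AASDHPPT* (0.94) for *SMAD4*. Each is the highest or second highest of all these correlations, and no test was made of it.

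A wider list of 55 other genes of the pathway gave 44 genes in the analysis, 22 of them with a mean under 10. Of these 44 genes, 3 were called higher (6.82%), 0 lower, and 41 were not called, with a median log2 fold change of 0.40. The 3 genes were the ligand genes *BMP7* and *GDF5* and the homeobox gene *MSX1*. The share is not above that over all genes given with the members.

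Among 9 other ligand genes, 2 were called higher. *BMP7* had 0.763, 2.97, 5.97, 0 and 4.13 in WT and 25.6, 11.9, 8.14, 6.57 and 9.22 in *SOX2* KO embryos, without overlap. Its log2 fold change was 1.98 (SE 0.59, limma adjusted p = 0.0309) on at most 7 reads in a WT and 23 in a *SOX2* KO embryo. *GDF5*, a ligand best known from joint development, had at most 1 read in WT and 3 in *SOX2* KO embryos, at the floor of detection, so no fold change is given, and its call held in 8 of 23 alternatives, in 2 of the 10 that left out an embryo and in none of the DESeq2 and edgeR fits. *BMP15*, which oocytes secrete, had 0, 53.4, 0, 70.7 and 2.36 in WT against 1.11 to 11.9 in *SOX2* KO embryos (limma adjusted p = 0.959). Its reads were concentrated in the WT embryos nc2 and nc4. The call of *BMP7* was lost without ko1, ko5, nc1 or nc4, with limma adjusted p of 0.0638 to 0.0915. It was also lost with a pseudocount of 0.1 (0.0637), quantile normalization (0.121), the *RN18S1* share as a covariate (0.225) and edgeR on all 10 embryos (0.0507).

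None of the 10 other receptor and co-receptor genes was called by limma. At an unadjusted p under 0.05 there was 1, the co-receptor gene *ENG*, with 7.67 to 17.9 in WT against 14.5 to 34.5 in *SOX2* KO embryos (log2 fold change 0.93, limma adjusted p = 0.0951), and it was called higher by DESeq2 without nc3 and by limma with quality weights, and by neither DESeq2 nor edgeR on all 10 embryos. *ACVR2B*, a type II receptor gene and the most abundant of these, had means of 186 ± 41.0 and 159 ± 23.1 (SD, n = 5 each; limma adjusted p = 0.431).

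None of the 9 other SMAD and regulator genes was called by limma, nor by DESeq2 or edgeR, and 2 had an unadjusted p under 0.05 in limma. *SMAD7*, an inhibitory SMAD, had 105, 77.1, 89.5, 103 and 75.0 in WT and 130, 140, 105, 133 and 212 in *SOX2* KO embryos. Its log2 fold change of 0.65 (SE 0.20, limma adjusted p = 0.0360) passed on the p-value and not on the fold change, and the p-value was lost without ko1, ko2, ko5, nc2 or nc5 (limma adjusted p 0.0505 to 0.118). *SKIL*, which encodes a repressor that binds SMADs, had means of 51.6 ± 7.95 and 35.3 ± 12.6 (SD, n = 5 each; limma adjusted p = 0.130). *PPM1A*, a phosphatase gene and the most abundant of these, had means of 142 and 115 (limma adjusted p = 0.255). Among 6 antagonist genes limma called 0 and 1 had an unadjusted p under 0.05. That gene was *BMPER*, with at most 5 reads in a WT and 10 in a *SOX2* KO embryo (limma adjusted p = 0.0504). The most abundant antagonist gene, *CRIM1*, had 28.2 to 50.2 in WT against 20.5 to 100 in *SOX2* KO embryos, where ko4 was the lowest of all (limma adjusted p = 0.165). DESeq2 and edgeR on all 10 embryos called none of the 6. *BMPER* was called higher by limma without ko2, ko4 or nc4, after rescaling by the median ratio of abundant genes and with quality weights, *CHRD* by limma without ko2 and by DESeq2 without nc3, and *CRIM1* by limma without ko4.

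Of 7 other BMP-responsive genes, 1 was called, and limma without nc3 and with quality weights also called *ATOH8* higher. *MSX1*, a homeobox gene, had 6.87, 8.90, 1.99, 7.77 and 20.1 in WT and 39.0, 44.9, 75.6, 23.0 and 18.4 in *SOX2* KO embryos. Only nc5 and ko5 overlapped. Its log2 fold change was 2.11 (SE 0.47, limma adjusted p = 0.00808), and it kept the call under all 24 alternatives. Its paralog *MSX2* was the most abundant of these genes, with means of 213 ± 44.9 and 199 ± 29.2 (SD, n = 5 each; limma adjusted p = 0.792). None of the 3 genes of E proteins, the partners of ID proteins, was called by limma, nor by DESeq2 or edgeR, and limma without ko4 called *TCF4* higher. *TCF12*, the most abundant and the only one with an unadjusted p under 0.05, had 74.6 to 84.4 in WT against 40.3 to 64.7 in *SOX2* KO embryos. These did not overlap, and the log2 fold change was -0.64 (SE 0.21, limma adjusted p = 0.0442), under the threshold on the fold change. The p-value passed without ko2 or nc3 and was lost without any of the other 8 embryos.

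**Figure D5:**
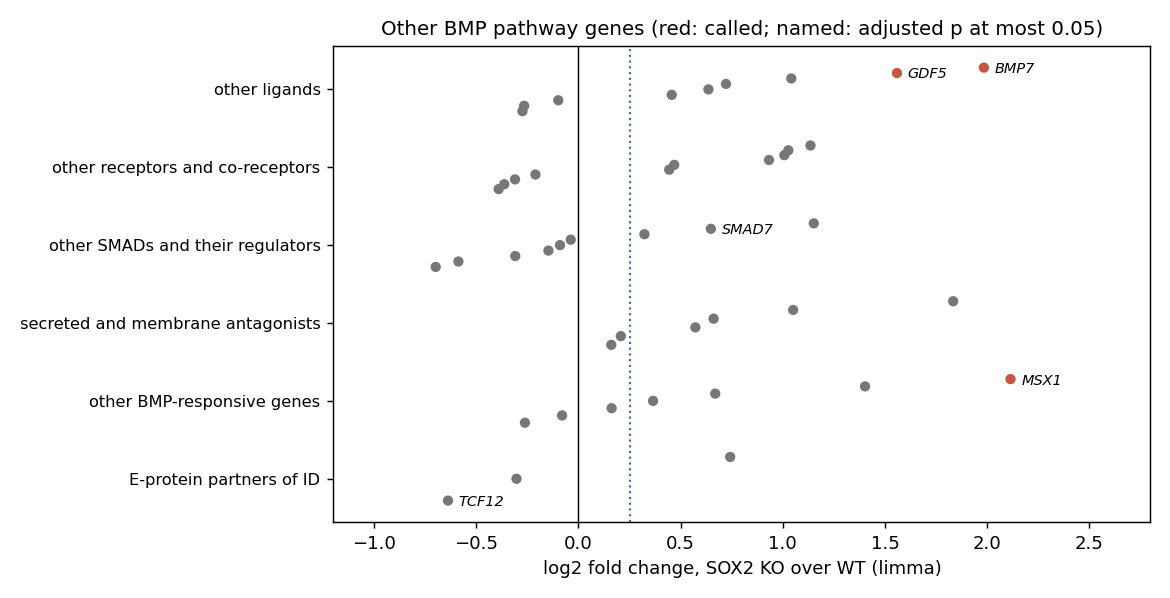
Log2 fold change in *SOX2* KO against WT embryos (x axis) of the 44 analysed genes of the wider list, 1 point each, by role (y axis), with called genes in red, names for genes with an adjusted p of at most 0.05, and a dotted line at the median of all tested genes (0.25). The 3 called genes are *BMP7*, *GDF5* and *MSX1*, and the value of *GDF5* rests on at most 3 reads in an embryo.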

How the data were processed

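Single bovine embryos were sequenced from poly(A)-primed Smart-seq2 cDNA, 5 per group. According to the study's methods and the submitters' processing notes, the authors trimmed reads with Trimmomatic, aligned them with HISAT2 to ARS-UCD1.2, counted them with featureCounts and normalized them with DESeq2. Annotation release, strand setting and treatment of multi-mapping reads are not given in the sources used here. The deposited signal values are read counts divided by a size factor. All 201120 of 201120 values (100.0%) lay within 0.001 of a whole number of reads once each embryo's step was divided out.

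Groups came from the labels. Genes were tested where their mean reached 1, with limma 3.58.1 (trend) in R 4.3.3 on log2(value + 1). Intervals are 95% intervals from limma. DESeq2 1.42.0 and edgeR 4.0.16 were run on the recovered reads of all 10 embryos, and again without nc3. The fits without nc3 and the fit with the *RN18S1* share were chosen after seeing the data. The scripts were tested on simulated data. The members and gene lists were chosen with earlier results of these data known. Named genes were the members, *SOX2*, genes of the wider list with an adjusted p of at most 0.05, the most abundant gene of each of its groups and the 2 genes most similar to each member with a mean of at least 100. *ENG*, *SKIL*, *BMPER*, *CHRD*, *TCF4*, *ATOH8*, *CYP11A1*, *SPARC*, *TFAP2C*, *KRT8*, *KRT18*, *KRT19* and *NANOG* were named after their values were seen. So were *TDGF1*, *POU5F1*, *PRDM14*, *SALL4*, *ESRRB*, *UTF1* and *DNMT3B*. The labels do not say whether embryos of a group shared a fertilization batch, so p-values measure the spread between these embryos. The other genes of the wider list were not analysed here. Symbols and overlaps were looked up in RefSeq (ARS-UCD2.0), where 10 of 10 members matched.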

Additional observations from a re-analysis of the deposited data

Results flagged for a closer look

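In groups of 5 embryos, 4 of the 32 groups examined held 1 embryo far from the other 4 by Dixon's criterion of 0.71. For normally distributed values chance gives about 1 in 20 groups, or 1.6. Counts near the floor, such as those of *GDF5* and *ID3*, are not so distributed, so 4 and 1.6 cannot be compared. *BMPR1A* was 58.8 in the *SOX2* KO embryo ko5, against 87.2 to 97.8 in the others. *ID3* was 20.8 in the WT embryo nc2, against 0 to 3.89 in the others. *BMP7* was 25.6 in the *SOX2* KO embryo ko1, against 6.57 to 11.9 in the others. *GDF5* was 0.777 in the WT embryo nc4, which is 1 read, and 0 in the other 4.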

How the results depend on the processing

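*ID1* was called under all 24 alternatives run and *BMP2* in 16 of 24, and *BMP4*, the receptor genes, the SMAD genes and *ID3* under none of those run. *BMP2* was lost with edgeR without nc3 (adjusted p = 0.0635), quantile normalization (0.0802) and the *RN18S1* share as a covariate (0.122), and without single embryos as given with its values. The members called were 2 as reported, 1 after quantile normalization, 1 with the covariate and 1 to 3 with an embryo left out (1 without ko1, ko2, ko3, nc2 or nc4). The wider list gave 3 as reported, 1 with edgeR, with a mean of at least 10, after quantile normalization or with the covariate, 6 with quality weights, 5 by adjusted p alone and 1 to 6 with an embryo left out (1 without ko1, ko5 or nc1, 5 without ko2, 6 without ko4). With a mean of at least 10, 692 of 11334 genes were called. Of all tested genes, 2024 were called as reported and 1185 with a pseudocount of 5. The count was 1076 after quantile normalization (629 higher, 447 lower), 3515 with quality weights, 220 with the covariate, and 930 to 3316 with an embryo left out. That count moved by over 1.5 times without ko1 (1066), ko4 (3316), ko5 (930), nc1 (1291), nc2 (1230) or nc4 (1273). The cause was not tested. Log2 fold changes that turned were those of *BMPR1A* with the covariate (0.0406), *BMPR2* with edgeR without nc3 (-0.0056) and equal totals (-0.0195), *SMAD5* with the covariate (0.0889), *SMAD4* with edgeR (-0.0634), without nc3 in limma (-0.0194), DESeq2 (-0.0065) and edgeR (-0.0923), and with equal totals (-0.11) and quality weights (-0.0344), and *ID3* with the median ratio of abundant genes (0.0151), quality weights (0.15) and the covariate (0.36). With an embryo left out they ran from -0.37 to 0.10 for *SMAD5*, -0.0645 to 0.0883 for *SMAD4* and -0.55 to 0.56 for *ID3*. The median over all genes was 0.25 as reported, 0.14 with equal totals, -0.02 after quantile normalization and 0.34 with the median ratio of abundant genes. It was -0.04 when only the 11334 genes whose mean reached 10 were kept. *ID3*, *BMP7* and *GDF5* were left out by the filter on a mean of at least 10. No paired analysis was possible because replicate numbers from the labels are not carried by the column names. Depth limits *BMP2*, *ID3* and the *SOX2* KO values of *ID1*, which rest on few reads.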

Other observations

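The WT embryos with the least *ID1* and *ID2*, nc1 and nc3, also had the least *NANOG*, a pluripotency factor gene of the epiblast. Its normalized read counts were 17.6 and 17.9 in nc1 and nc3 and 64.9 to 148 in the other WT embryos, and 0 to 7.39 in *SOX2* KO embryos. The sums of the epiblast markers in nc1 and nc3, 3765 and 3938, were not low among WT embryos. Among the other single epiblast markers, *TDGF1*, with few reads, was also lowest in these 2 WT embryos (0 in nc1 and 1.99 in nc3). By contrast, *POU5F1* (1481) and *PRDM14* (80.1) were highest among WT embryos in nc1. *SALL4* (240), *ESRRB* (339), *UTF1* (249) and *DNMT3B* (713) were highest in nc3. *NANOG* was chosen after the values were seen, and no test was made of its order. *KRT19*, a keratin gene of the TE, was called higher, with 249.6 to 981 in WT against 774 to 2267 in *SOX2* KO embryos. The ratio of *SMAD1* to *SMAD5* ranged from 0.981 to 4.79 among WT embryos and from 3.0 to 3.94 among *SOX2* KO embryos.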
